A study of Mus musculus with 2 samples.

Results

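The genes described here are 10 that make DNA at the replication fork or supply its building blocks: Pola1, Pola2, Prim1, Prim2, Pold1, Pole2, Pcna, Rfc4, Rrm1 and Rrm2. They were chosen by symbol, through every probe annotated to 1 of them alone, out of 18069 genes with a probe of their own. All 10 had such a probe, Pole2 had 2, and 9 could be compared between the arrays. Total RNA of whole embryo proper at E8.5 (embryonic day 8.5) came from a pool of 45 mDom-/- mouse embryos and from a litter-matched pool of 42 wild-type embryos. Each pool was hybridised to 1 single-colour CodeLink oligonucleotide array, so there were 2 arrays in all, 1 a group. The sources used here do not name the allele or the strain. mDom (mDomino, p400) is the submitters' name for Ep400, which encodes an ATPase of the TIP60/p400 chromatin-remodelling complex. The comparison asks which transcripts differ in embryos homozygous for its mutation.

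Replication starts with DNA polymerase alpha-primase, the only polymerase of the fork that can begin a new strand. Its primase lays down a short RNA, its polymerase extends it with DNA, and polymerases delta and epsilon then copy most of the lagging and leading strands. A ring-shaped clamp, PCNA, is opened and loaded by replication factor C and tethers the polymerases, while ribonucleotide reductase turns ribonucleotides into the deoxynucleotides they consume. In dividing cells many of these genes are transcribed most strongly around S phase, and E2F factors are well-known regulators of them. The E8.5 embryo is a tissue of fast cell cycles.

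Values are intensities divided by the median of their array. The floor, below which a probe was treated as dim, was 0.541 times the array median, and a gene was compared when at least 1 array read above it (13137 genes). With 1 array a group no value has a replicate error and no test was possible, so genes are described by the size of their log2 ratio, mDom-/- over wild-type. An internal yardstick came from genes with a pair of probes: the SD of 1 log2 ratio was 0.249 over 1302 pairs. Genes above the floor on both arrays were also split by brightness into 4 classes of equal size, and the SD was 0.299 where the dimmer probe of the pair fell in the dimmest class and 0.144 in the brightest. It covers error that differs between the probes of a gene, for probes above the floor on both arrays. It does not cover error shared by such probes, or differences between embryo pools. Each class SD also averages the dimmer probe with its brighter partner, so it can understate the error of a dim ratio. Across the 11926 genes above the floor on both arrays the log2 intensities had a Pearson's r of 0.988, over genes, which are not independent replicates. The probes of Ep400 read -0.029 and 0.071 on the mDom-/- array, against 0.215 and 0.470 on the wild-type array. All 4 readings lay below the floor, so they do not check the labels.

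Most of the set read lower in the mDom-/- pool, by small amounts, and the 2 genes furthest apart belong to polymerase alpha-primase. Of the 9 compared genes 7 had a log2 ratio below 0, as had 50.5% of all compared genes. The median of the 9 was -0.24, against -0.0036 over all compared genes. Pola1 alone was at least 2-fold lower, a size reached by 0.929% of all compared genes. Pola1 and Prim2 were at least 1.5-fold lower, as were 4.35% of all compared genes, and none of the 9 was 1.5-fold higher, as were 4.09%. The list was chosen with results of these arrays known, so these counts describe it. Pold1 and Rrm2 had ratios above 0.

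**Figure D1:**
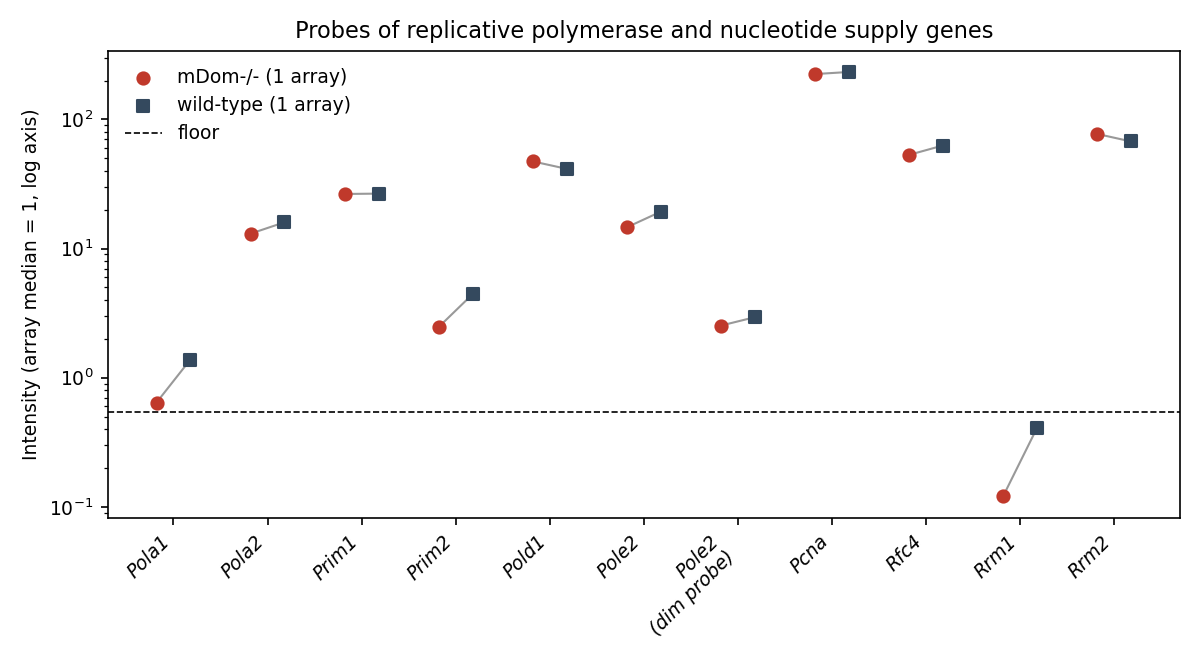
Intensity of each probe of the 10 genes on the mDom-/- array (red circles) and the wild-type array (blue squares), in units of the array median on a log axis, 1 array a group and so without error bars. The dashed line is the floor of 0.541; Rrm1 lies below it on both arrays, and Pola1 on the mDom-/- array lies just above it at 0.642.

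The subunits of DNA polymerase alpha-primase ranged from a log2 ratio of -1.11 to one near 0. Pola1, the catalytic polymerase subunit, read 0.642 in the mDom-/- pool and 1.38 in the wild-type pool. That is 2.15-fold lower, or 46.5% of the wild-type reading, and 84 of the 13137 compared genes (0.639%) had a lower ratio. The probe was dim. Its mDom-/- reading was 1.19 times the floor, and the arrays differed by -0.740 array medians. Among the 2982 genes in its class of brightness, the dimmest, 0.738% had a lower ratio. The fold shrinks when dim readings are held back: with 1 array median added to both readings, an alternative chosen after the values had been seen, the log2 ratio was -0.54, and with a floor at the 60th percentile the gene was not compared.

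Prim2, the large primase subunit, which helps the catalytic subunit to start and count the RNA primer, read 2.47 in the mDom-/- pool and 4.43 in the wild-type pool. It was 1.80-fold lower (log2 ratio -0.84), and 1.66% of all compared genes and 1.11% of its class of brightness had a lower ratio. Its reading in the mDom-/- pool was 4.57 times the floor. The ratio was the same with every floor tried, including the 60th percentile floor, with which Pola1 was not compared. Over all alternatives it lay between -0.85 (no rescaling) and -0.65 (1 array median added). Pola2, the regulatory B subunit, read 13.04 in the mDom-/- pool and 15.97 in the wild-type pool, a log2 ratio of -0.29. Prim1, the catalytic primase subunit, read 26.5 in the mDom-/- pool and 26.6 in the wild-type pool. Its log2 ratio of -0.0086 turned to 0.014 with 75th percentile scaling, so it has no direction. In units of the probe-pair SD of their class, the ratios of Prim2 and Pola1 were -3.81 and -3.70, that of Pola2 was -1.45 and that of Prim1 was -0.060. The spread over all genes of a class was wider than its probe-pair SD. The robust SD was 0.256 against 0.221 in the class of Prim2, and 0.348 against 0.299 in that of Pola1. The partners of 1 complex therefore read unequally on these arrays, each through 1 probe.

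The sequence around the start of Pola1 is shown with those of Pole2, also lower, and Rrm2, slightly higher, because all 3 hold letters of the E2F consensus at different places. The windows are from RefSeq (GRCm38.p6), run 5′ to 3′ on the strand of the gene, and cover 250 bases before the start and 25 after it. Capitals mark each match, on either strand, to the heptamer TTNNCGC in which NN was GG, CG, CC or GC.
Pola1 (chrX:93632131-93632405, minus strand): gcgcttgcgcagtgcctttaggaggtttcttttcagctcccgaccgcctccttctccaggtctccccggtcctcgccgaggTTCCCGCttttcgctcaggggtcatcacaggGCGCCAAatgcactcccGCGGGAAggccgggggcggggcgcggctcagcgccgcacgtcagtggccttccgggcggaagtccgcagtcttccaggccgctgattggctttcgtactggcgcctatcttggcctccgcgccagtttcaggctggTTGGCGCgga
Pole2 (chr12:69228166-69228440, minus strand): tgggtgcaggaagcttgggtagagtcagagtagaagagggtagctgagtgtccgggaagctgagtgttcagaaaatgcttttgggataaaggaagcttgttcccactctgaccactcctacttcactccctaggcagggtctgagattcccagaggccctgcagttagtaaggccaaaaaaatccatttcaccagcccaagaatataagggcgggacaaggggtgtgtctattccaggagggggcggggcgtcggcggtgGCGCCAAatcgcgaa
Rrm2 (chr12:24708004-24708278, plus strand): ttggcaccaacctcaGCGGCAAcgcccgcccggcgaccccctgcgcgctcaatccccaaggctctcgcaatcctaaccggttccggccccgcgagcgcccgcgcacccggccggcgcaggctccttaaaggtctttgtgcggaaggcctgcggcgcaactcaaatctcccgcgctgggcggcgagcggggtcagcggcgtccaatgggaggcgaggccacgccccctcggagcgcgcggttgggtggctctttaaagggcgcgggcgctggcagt
In RefSeq windows that run to 50 bases after the start, 9 of the 10 genes were matched (not Prim2) and 7 of them held such a heptamer, as did 9.57% of all 32851 windows and 17.6% of the 10570 compared genes with a window. Pola1 had 4 matches, from -169 to 22 bases relative to the start. Pole2 had 1 at 11 to 17 and Rrm2 1 at -235 to -229. Pola2 and Pcna had none. The longer form with a further T in front, which overlaps the heptamer, was found in Pola1, Pole2 and Pold1, as in 2.26% of all windows and 4.15% of the compared genes with a window. Among the compared members with a heptamer, Pola1, Pole2 and Rfc4 read lower, Prim1 was near 0, and Pold1 and Rrm2 read higher. The members with a window but no heptamer, Pola2 and Pcna, had log2 ratios of -0.29 and -0.05. Whether the letters had a part in the ratios was not tested. Over the compared genes, the 1865 with a heptamer had a median log2 ratio of -0.016 and the 8705 without one 0.0033. A match is a string of letters, not a measured binding site.

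Polymerases delta and epsilon were each represented in the set by 1 subunit. Pold1, the catalytic subunit of polymerase delta, which also proofreads, read 47.3 in the mDom-/- pool and 41.4 in the wild-type pool, a log2 ratio of 0.19. Pole2, the B subunit of polymerase epsilon, read 14.6 in the mDom-/- pool and 19.3 in the wild-type pool on its brighter probe, 1.32-fold lower (log2 ratio -0.40). Its dimmer probe read 2.53 in the mDom-/- pool and 2.94 in the wild-type pool (-0.22). Pole2 was the only member with a second probe, and both probes read lower in the mDom-/- pool, with ratios of -1.998 and -0.975 in probe-pair SDs of their classes. Pold1 lay 1.33 such SDs above 0. Among the genes in its class of brightness, 80.7% had a lower ratio than Pold1 and 6.81% a lower ratio than Pole2.

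The sliding clamp differed little, and a subunit of its loader read somewhat lower in the mDom-/- pool. Pcna, the clamp, read 224 in the mDom-/- pool and 233 in the wild-type pool, a log2 ratio of -0.05, or -0.379 in probe-pair SDs. With loess, which removes the trend of ratio with brightness, it was -0.22, the lowest over the alternatives. Rfc4, a small subunit of the clamp loader, read 53.2 in the mDom-/- pool and 62.8 in the wild-type pool. It was 1.18-fold lower (log2 ratio -0.24, or -1.67 in probe-pair SDs, and -0.30 with loess). Among the genes in the brightest class 9.46% had a lower ratio. In that class 44.3% of genes read below 0 and the median ratio was 0.03, so the brightest genes leaned slightly upward on the mDom-/- array.

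**Figure D2:**
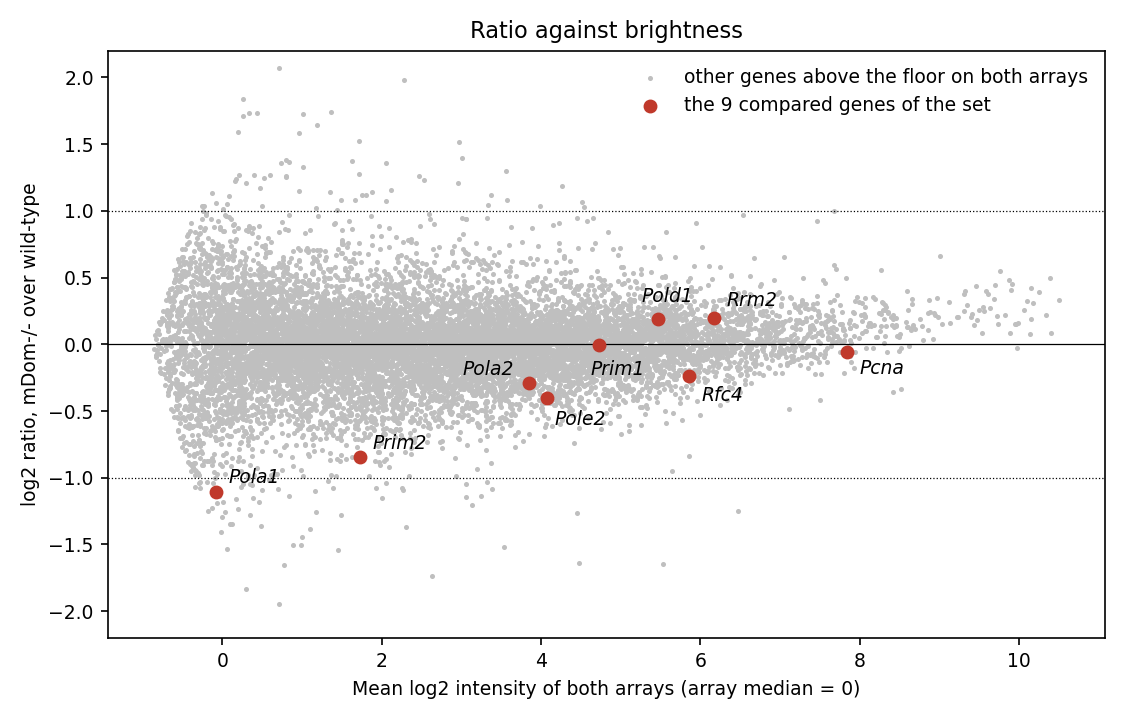
The log2 ratio of mDom-/- over wild-type (vertical axis) against the mean log2 intensity of both arrays, with array medians at 0 (horizontal axis), for genes above the floor on both arrays (grey) and the 9 compared genes of the set (red). Dotted lines mark 2-fold, and 5 genes lie outside the axis; Pola1 and Prim2 lie at the lower edge of the cloud at -1.11 and -0.84, and the 5 members of the brightest class lie between -0.24 and 0.19.

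Of the subunits of ribonucleotide reductase in the set, Rrm2 could be compared and Rrm1 could not. Rrm2, the small subunit that carries the radical and is made in S phase, read 77.2 in the mDom-/- pool and 67.5 in the wild-type pool, a log2 ratio of 0.19. It was 1.35 probe-pair SDs above 0, and 81.1% of the genes in its class had a lower ratio. Rrm1, the large subunit that holds the catalytic site, read 0.121 in the mDom-/- pool and 0.408 in the wild-type pool, both below the floor, so no fold is given. No comparison of the pair is therefore given.

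The 4 members outside the brightest class had log2 ratios from -1.11 to -0.29 and the 5 inside it from -0.24 to 0.19. Over all genes of each class, from the dimmest to the brightest, the median ratios were 0.0014, -0.021, -0.027 and 0.029. Dim genes were more scattered, with a robust SD of 0.348 in the dimmest class and 0.189 in the brightest. Whether brightness had a part in the order of the members was not tested.

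Other genes of the fork, fixed as a list of 29 by function, had 17 of 25 compared members below 0 and a median log2 ratio of -0.09. None was 1.5-fold lower, as were 4.35% of all compared genes, or 1.5-fold higher, as were 4.09%. Counts below 0 in this and the following lists stand beside 50.5% of all compared genes. Rpa2, a subunit of the single-strand binding protein, read 4.18 in the mDom-/- pool and 5.65 in the wild-type pool (log2 ratio -0.44). Dna2, a nuclease and helicase that trims flaps, had -0.38. The highest were Pold4, a small subunit of polymerase delta (0.40), and Rfc5, a clamp loader subunit (0.24). Among complex partners of the members, Pole, the catalytic subunit of polymerase epsilon, had -0.33, and Pole3 and Pole4 had -0.14 each. Pole3 had a second probe at -0.29. Of the polymerase delta subunits, Pold2 was near 0 at 0.04 and Pold3 had -0.31. Pole, Pole3, Pole4, Pold2 and Pold3 are named as complex partners, after their values had been seen.

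Genes of origin licensing and of the MCM helicase, which once active opens the DNA ahead of the polymerases, had a median of -0.24. It was equal to that of the set at 2 decimals, and 17 of the 20 compared genes were below 0. Orc5, an origin recognition subunit, was 1.59-fold lower, at 4.07 in the mDom-/- pool and 6.46 in the wild-type pool. Mcm7, a helicase subunit, had a log2 ratio of -0.46. The highest were Cdt1, the licensing factor (0.11), and Gins4, a subunit of the active helicase (0.05). The mitosis list had a median of -0.10 over 14 compared genes, with 11 below 0. Plk1, a mitotic kinase, had -0.55 and Aurka, another, -0.41 with a second, dimmer probe at -0.0065. Birc5, a chromosomal passenger protein, had 0.19 and Bub1, a checkpoint kinase, 0.12 with a second probe at -0.31.

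The other genes of deoxynucleotide supply had a median of -0.04 over 13 compared, with 7 below 0. Dck, the kinase that salvages deoxycytidine, was at least 1.81-fold lower, at 0.487 in the mDom-/- pool (below the floor) and 0.978 in the wild-type pool. Cmpk1, a pyrimidine nucleotide kinase, had -0.44, with its other 2 probes at -0.17 and -0.73, and Dctd, a deoxycytidylate deaminase, had -0.40. The highest were Guk1, guanylate kinase (0.36), and Dguok, the mitochondrial deoxyguanosine kinase (0.25). Rrm2b, the p53-inducible small subunit of the reductase, had 0.01, and is named as the alternative partner of Rrm1 after its value had been seen.

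Upstream of these, the genes that build purine and pyrimidine bases had a median of -0.18 over 14 compared, with 12 below 0. Paics, a bifunctional purine enzyme, read 6.08 in the mDom-/- pool and 8.74 in the wild-type pool (log2 ratio -0.52), and Prps1, which makes the ribose donor, had -0.47. Umps, the last enzyme of uridylate synthesis, went the other way, at 15.7 in the mDom-/- pool and 9.35 in the wild-type pool, 1.68-fold higher. A second Umps probe, above the floor on the mDom-/- array only, had a ratio of 0.06, a bound. Adss, adenylosuccinate synthase, had 0.0058, the second highest.

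DNA polymerases of repair, lesion bypass and mitochondria had a median of -0.02 over 13 compared genes, with 7 below 0. Primpol, which reprimes stalled forks, was 1.58-fold lower at 0.680 in the mDom-/- pool and 1.08 in the wild-type pool. Polq, the polymerase of end joining, had -0.45. Polh, a lesion bypass polymerase, was 1.58-fold higher at 1.82 in the mDom-/- pool and 1.15 in the wild-type pool, and Mad2l2, a subunit of polymerase zeta, had 0.51. Primpol and Polh were dim on both arrays, and the robust SD of the log2 ratio in the dimmest class was 0.348. The difference between these lists was not tested.

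**Figure D3:**
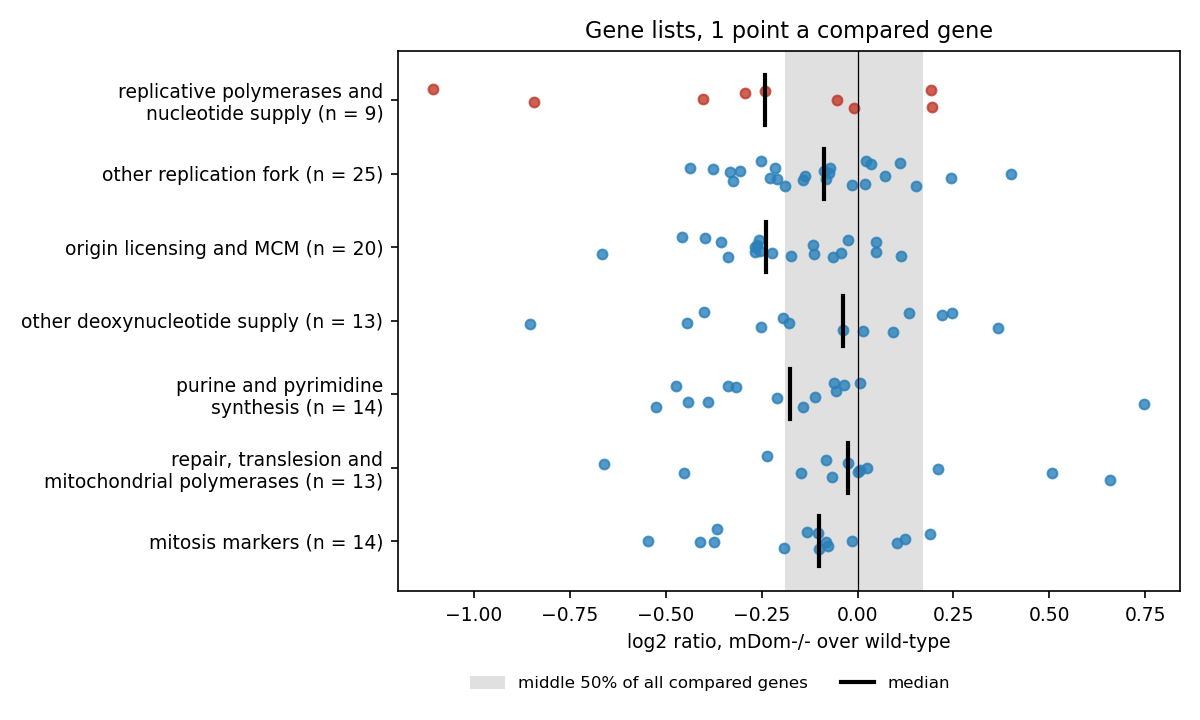
The log2 ratio of mDom-/- over wild-type (horizontal axis) for each compared gene of the 10-gene set (red) and of 6 other lists (blue), with the list median as a black bar. The grey band holds the middle 50% of all compared genes, from -0.19 to 0.17; the medians of the set and of origin licensing and MCM genes (-0.24 each) lie left of it, and the other 5 medians lie inside it.

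Each pool mixed all tissues of the embryo, so fewer cells of a type and less RNA per cell cannot be told apart. Markers of the tissues of the embryo proper were present: 4 of 5 neural tube, 5 of 5 somite, 4 of 5 heart and 5 of 5 gut endoderm genes were above the floor in both pools, with Sox2 and Myh6 below it. The summed intensity of the gut endoderm list was 302.7 in the mDom-/- pool and 154.6 in the wild-type pool, mostly Spink1 (2.002-fold higher). For 3 red cell genes with a probe it was 30.3 in the mDom-/- pool and 339.7 in the wild-type pool, with Hbb-y and Hba-x, the embryonic globins, 26.2-fold and 8.91-fold lower and Alas2 2.22-fold lower. Of 5 endothelial markers 2 were above the floor in the mDom-/- pool and 4 in the wild-type pool, and they summed to 32.4 in the mDom-/- pool and 44.2 in the wild-type pool, with Emcn 2.13-fold and Pecam1 at least 2.11-fold lower and Cdh5 below the floor in both. All 6 visceral endoderm and yolk sac genes were above the floor in both pools, and they summed to 731.7 in the mDom-/- pool and 557.2 in the wild-type pool. Their directions were split, with 3 below 0 and 3 above 0. Apoc2 read 242.4 in the mDom-/- pool and 128.0 in the wild-type pool, and Ttr 251.2 and 166.6. Both are named for their weight in the sum, after their values had been seen. For 4 trophoblast and decidua genes with a probe the sum was 38.9 in the mDom-/- pool and 42.4 in the wild-type pool, with Tpbpa below the floor in both. Neural, somite and heart sums were 40.03, 48.2 and 539.5 in the mDom-/- pool and 46.7, 47.1 and 567.2 in the wild-type pool. The part of cell mixture in the ratios of the replication genes was not tested.

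**Figure D4:**
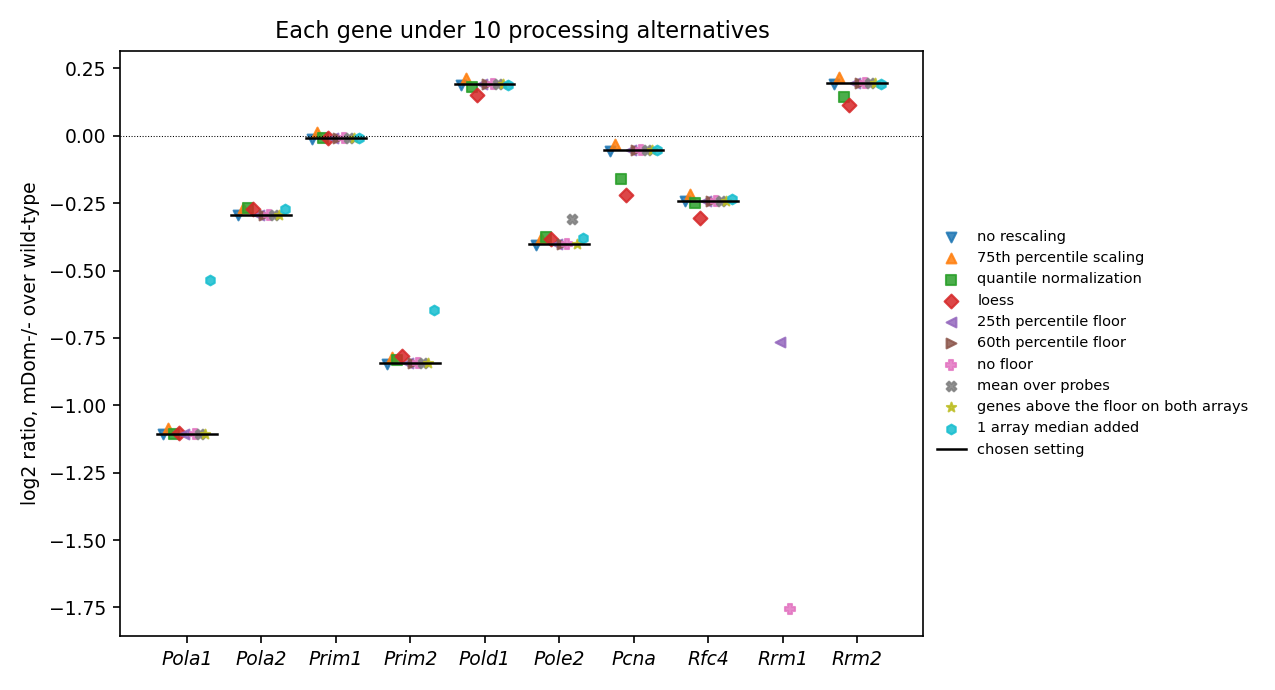
The log2 ratio of mDom-/- over wild-type (vertical axis) of each of the 10 genes at the chosen setting (black line) and under 10 processing alternatives (coloured marks), each from 1 array a group. Pola1 moves to -0.54 when 1 array median is added, Rrm1, below the chosen floor on both arrays, has a value with the 25th percentile floor and with no floor only, and Prim1 alone changes sign.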

How the data were processed

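The authors deposited linear spot intensities, 1 column for each array, from images that per the labels were analysed with the CodeLink System Software. The sources used here state neither its version nor the background correction, scaling or detection flags. The values show prior scaling: medians were 1.05 in both columns, and they reached 1714 (mDom-/-) and 1374 (wild-type). The code -9999 was read as no value (106 mDom-/- and 105 wild-type probes). Of 36227 probes, 21615 had 1 gene symbol in the platform annotation, 681 several and 13931 none listed; 21487 were given their RefSeq symbol (GRCm38.p6) through the Entrez identifier. Control spots could not be told apart.

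Each array was divided by its median and raised to the floor (the 40th percentile of whichever array had the higher one). A gene took its brightest compared probe. Where 1 array was below the floor, the ratio is a bound ("at least"). Python 3.11.15, pandas 2.3.3 and statsmodels 0.14.6 (loess, span 0.3) were used, and the steps were tested on simulated data. The simulation had the same relative noise at all intensities and changes only in genes above the floor on both arrays. It did not test the error of dim readings. Members, lists and rules were chosen with earlier results of these data known. Named genes were all members, list genes at least 1.5-fold apart, the 2 lowest and 2 highest of each list above the floor on both arrays, and markers 2-fold apart; others are marked. Samples were grouped by title. Intensities carry no count or depth, and precision is limited by having 1 array a group.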

Additional observations from a re-analysis of the deposited data

How the results depend on the processing

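Scaling (none, 75th percentile, quantile, loess), floors (25th or 60th percentile, none), the mean over probes, and genes above the floor on both arrays were tried, with 1 array median added as a further alternative chosen after seeing the data. The number of members at least 2-fold lower was 1 at the chosen setting, 0 with the 60th percentile floor (Pola1 not compared) and with 1 array median added, and 2 with no floor, where Rrm1 counts although both its readings lie below the chosen floor. The number at least 1.5-fold lower was 2 at the chosen setting, 1 with the 60th percentile floor and with 1 array median added, and 3 with the 25th percentile floor and with no floor. Under the 10 alternatives the median of the members lay between -0.27 and -0.15, with 6 to 8 members below 0. The other list medians ranged from -0.11 to -0.066 for the fork, -0.24 to -0.21 for licensing, -0.057 to -0.013 for deoxynucleotide supply, -0.24 (mean over probes) to -0.15 for base synthesis, -0.027 to -0.0016 for other polymerases and -0.18 (loess) to -0.079 for mitosis. Over all genes, 122 were at least 2-fold lower at the chosen setting, against 522 with the 25th percentile floor, 28 with the 60th, 1129 with none, 36 with 1 array median added and 71 when both arrays had to be above the floor. The share at least 1.5-fold lower, 4.35% at the chosen setting, was 8.62%, 2.198%, 11.6% and 2.02% under the first 4 of these. With the 25th percentile floor Rrm1 had -0.77, a bound. No scaling moved the median of all genes by more than 0.1. No paired analysis was possible because each group has 1 array. The number of arrays and, for Pola1 and Rrm1, readings near or below the floor limit what can be said.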
